A study of Mus musculus with 90 samples.

Results

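Cirbp and Rbm3, the cold-inducible RNA-binding proteins of the mouse, were followed through 54 liver RNA libraries, each from 1 mouse. The members were chosen by name, as the entries of the table whose RefSeq ID maps to the symbol Cirbp or Rbm3, and each symbol was represented by its ID with the highest mean. They are 2 genes of 24308 symbols in the table. Levels are given in RPKM (reads normalized for the length of the transcript and the depth of the library), and every log2 fold change is a difference of means on log2(RPKM + 0.5).

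All mice were on night-restricted feeding (NRF), in which food was offered in the dark period only, with lights off at zeitgeber time (ZT) 12. Their background was C57BL/6, given in the methods as C57BL/6N for the NRF, injected, and Nr3c1 fl/fl mice. For the L-IRSdKO experiment it was given as C57BL/6J. In the NRF experiment, wild type male mice of 10 weeks were killed at ZT10 (n = 2), or at ZT14 after food at ZT12 (ZT14-fed, n = 2) or without it (ZT14-unfed, n = 2). The injected wild type mice, also of 10 weeks, received vehicle (PBS) and no food, or food with vehicle, with 1 mg/kg dexamethasone (dex, a synthetic agonist of the glucocorticoid receptor [GR]), with S961 (a peptide antagonist of the insulin receptor), or with both, and were killed at ZT14 (n = 4 each). In the L-GRKO experiment, unfed adult Nr3c1 fl/fl mice had received AAV-CRE or AAV-GFP (n = 4 each), both driven by the Tbg promoter, which is active in hepatocytes. In the L-IRSdKO experiment, Irs1 fl/fl, Irs2 fl/fl mice with or without Alb-Cre (n = 4 each) were 10 weeks old, and all were fed and had received 1 mg/kg dex. In the obesity experiment, wild type mice had eaten chow (lean) or a high-fat diet (HFD, obese) for 10 weeks from 5 weeks of age and were killed at ZT14 fed or unfed (n = 3 each). Both deletions act in hepatocytes, whereas the RNA is of whole liver, in which fewer cells of a type and less RNA per cell cannot be told apart.

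CIRBP and RBM3 are small proteins with 1 RNA recognition motif (RRM) followed by a tail rich in arginine and glycine. Both were described as proteins that accumulate when cells are cooled mildly, the opposite of heat shock proteins, which are induced through heat shock factor 1 (HSF1) when cells are warmed. In rodents, body temperature rises toward the active dark phase and also after meals, and Cirbp transcripts in the liver are known to cycle with it, being high in the resting phase. CIRBP binds 3' untranslated regions of transcripts such as Clock and is known for its influence on polyadenylation site choice, and RBM3 is known for its support of translation and of synapses in cooled neurons. Splicing of Cirbp and Rbm3 themselves changes with temperature through the CDC-like kinases (CLKs) and the SR splicing factors they phosphorylate.

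Cirbp has a single RefSeq ID in the table, NM_007705, whose level over the 54 libraries lay between 1.48 and 21.0 RPKM. The gene lies at chr10:79628730-79635531 of mm9 on the plus strand. Rbm3 has 5 IDs and lies at chrX:7716101-7723006 on the minus strand. By the rule, NM_001166411 stood for Rbm3, with a mean of 6.04 RPKM, and the next 3 IDs had means of 6.02 (NM_001166409), 6.01 (NM_001166410), and 6.00 RPKM (NM_001293658). The fifth, NM_016809, had a mean of 5.20 RPKM and behaved differently, so it is given beside NM_001166411 in the comparisons of groups. Correlations across libraries use NM_001166411 alone.

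At the start of Cirbp, 1 of the 83592 DNase I hypersensitive sites (DHSs, places of open chromatin) listed for these livers covers the stretch directly upstream. This DHS is chr10:79630354-79630521, with its midpoint 85 bases upstream of the start of ENSMUST00000105365. It is shown 5' to 3' in the direction of the gene, from mm9, as the promoter of the member whose level changed. Capitals mark matches on either strand to the GC box (GGGCGG, read as CCGCCC on the other strand), the letters bound by SP1-like factors, and to the CCAAT box (CCAAT, or ATTGG), the letters bound by NF-Y.

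Cirbp DHS, plus strand: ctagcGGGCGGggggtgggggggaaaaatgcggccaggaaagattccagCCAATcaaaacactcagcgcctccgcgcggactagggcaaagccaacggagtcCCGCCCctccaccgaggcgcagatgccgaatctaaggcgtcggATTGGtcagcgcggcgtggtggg

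The Cirbp stretch holds 2 GC boxes and 2 CCAAT boxes in 168 bases. A GC box is in 8.71% and a CCAAT box in 24.9% of all listed DHSs, and the CCAAT box was added to the search after the sequence had been seen. The stretch has a GC content of 65.5%, with 17 CpG. It holds none of the heat shock element cores GAANNTTC (4.68% of DHSs) and TTCNNGAA (5.01%), the E-box CACGTG (3.23%), the cAMP response element TGACGTCA (0.457%), the FOXO motif TGTTTAC (4.36%), the GR motif AGAACA (14.3%), and the mild cold response element TCCCCGCC (1.01%). A match is only a match of letters.

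Around the starts, 12 DHSs lay within 50 kb of Cirbp and 8 within 50 kb of Rbm3. Of 10446 GR peaks, 1 lay within 50 kb of Cirbp, 20.9 kb upstream, and 0 within 50 kb of Rbm3, where the nearest was 66.1 kb away. Of 8546 FOXO1 peaks (FOXO1 is a factor that insulin signaling keeps out of the nucleus), 0 lay within 50 kb of Cirbp and 1 within 50 kb of Rbm3, 47.5 kb upstream. The lists give positions only, without heights or replicates. Thus neither gene had a listed GR or FOXO1 peak at its start. By the study, these peaks were identified in unfed mice at ZT14, so the lists do not cover fed or injected mice.

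The 5 Rbm3 IDs fall into 2 classes of transcript. RPKM values move in steps of 1 read, and the step of each ID gives the transcript length that was used. For 4 IDs, the implied length was 1336 to 1343 bases, next to ENSMUST00000115621 (1338 bases), whose last exon is chrX:7719485-7720081. For NM_016809 it was 2978 bases, next to ENSMUST00000040010 (2792 bases), whose last exon is chrX:7716104-7718334. The classes share exons 2 to 5 and differ mainly in the last exon. In these nearest transcripts, the first exon had 243 bases in the short class and 60 in the long class, and exon 6 had 79 and 82. The 2978 bases implied for NM_016809 exceed the 2792 of its nearest transcript. Its own exons, and the shares given below for the long class, may therefore differ from those of that transcript.

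They also differ in how much of their sequence is unique. Of the 50-base stretches of the short class, 79.4% occur elsewhere in mm9, and 98.9% of those of its last exon do, in 5 other loci on 4 chromosomes, as is common for genes with processed pseudogenes. In the long class 16.9% occur elsewhere, with 1.33% in its last exon and 85.0% in its other exons. For Cirbp, 0 of 1272 stretches occur elsewhere. The values of the short class therefore depend on how reads with several matching places were treated, which is not given in the sources used here, and they are uncertain in a way that those of Cirbp are not. In addition, an antisense gene on the plus strand, Rbm3os (2900002K06Rik), covers 243 exonic bases at the 5' end of the short class. Its span also holds the first exon of the long class. Without knowledge of the strand counted, reads of Rbm3os and those of Rbm3 cannot be told apart there.

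**Figure D1:**
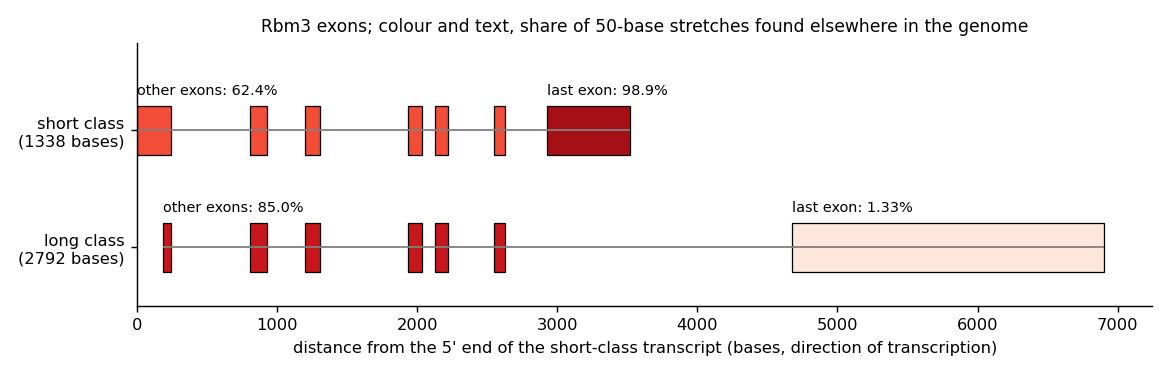
Exons of the short and the long class of Rbm3 transcripts, drawn to scale by distance in bases from the 5' end of the short class in the direction of transcription. The darker the exon, the larger the share of its 50-base stretches that occur elsewhere in the genome, which is 98.9% in the last exon of the short class and 1.33% in the last exon of the long class.

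The depth implied by the read steps was 26.1 to 38.3 M reads per library in the NRF experiment, 6.48 to 13.5 M in the injected mice, 15.3 to 27.4 M for L-GRKO, 3.64 to 4.49 M for L-IRSdKO, and 16.9 to 62.3 M for obesity. Cirbp then rested on as few as 15 reads in the injected mice, where counting alone adds an error of up to 25.8%, and NM_001166411 on 12 to 26 reads in the L-IRSdKO experiment (up to 28.9%). The depth implied for the L-IRSdKO mice is below the aligned reads that the study lists for them, so the reads and the counting error given there may be off. The NRF libraries were made by ribosomal depletion and all others by poly(A) enrichment. The deleted gene checked the labels. Nr3c1 was 14.2 ± 1.55 RPKM (SD, n = 4) with AAV-GFP and 4.41 ± 0.637 with AAV-CRE, and Irs1 was 4.03 ± 1.22 in floxed mice and 0.199 ± 0.0820 in L-IRSdKO. Irs2 was 2.19 ± 2.31 and 0.773 ± 0.337 RPKM and did not pass the test (limma BH-adjusted p = 0.31). The L-IRSdKO experiment stands apart, in that the summed level of 6 hepatocyte markers (Alb, Apoa1, Apob, Cps1, Fabp1, and Hnf4a) was 2362 to 2846 RPKM in its 8 libraries and 29122 to 70275 RPKM in all others. In the L-GRKO libraries, 25.3 to 31.0% of low values lay near the midpoint between whole reads, against 5.39 to 9.76% elsewhere. NM_001166411 was 16.3 to 23.9 RPKM in the L-GRKO libraries and at most 7.42 RPKM elsewhere. Hence, levels were compared only within an experiment.

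At ZT10, Cirbp was 4.88 and 6.20 RPKM in the 2 mice. At ZT14 it was 1.90 and 1.48 RPKM without food. With food it was 1.62 and 1.68 RPKM. Both ZT10 mice were thus above all 4 mice killed at ZT14, and the values of the fed and unfed mice overlapped. Cirbp fell by 1.46 on the log2 scale between ZT10 and ZT14-unfed (SE 0.15, 95% confidence interval -1.81 to -1.11, limma BH-adjusted p = 0.0055), which is 2.76-fold. Between ZT10 and ZT14-fed it fell by 1.48 (SE 0.15, limma BH-adjusted p = 0.0033), or 2.79-fold. The falls share the ZT10 mice. Of all genes tested, 1.16% passed the adjusted p of 0.01 between ZT10 and ZT14-unfed and 1.71% between ZT10 and ZT14-fed, while 56.2% and 58.4% had groups without overlap, so that non-overlap of 2 against 2 mice says little. Food at ZT14 was accompanied by a difference of -0.02 in Cirbp (95% confidence interval -0.37 to 0.33, limma BH-adjusted p = 0.95), in a comparison that called 0.990% of genes.

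The test with 2 mice per group was sensitive to the choice of libraries. Without ZT10 replicate 2, the higher of the pair, the fall to ZT14-unfed was 1.30 with an adjusted p of 0.033 by limma, and 3 of the 4 ways of leaving out 1 library raised the adjusted p above 0.01, as did all 4 for ZT14-fed (0.012 to 0.038). The direction held in each.

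Rbm3 did not pass the threshold in these mice. NM_001166411 was 3.02 and 3.73 RPKM at ZT10, 2.73 and 2.52 at ZT14-unfed, and 3.04 and 3.00 at ZT14-fed. The ZT14-unfed mice were the lowest, and the fed mice lay next to the lower of the ZT10 mice. From ZT10 to ZT14-unfed, where the groups did not overlap, the log2 fold change was -0.31 (SE 0.12, 95% confidence interval -0.59 to -0.02, limma BH-adjusted p = 0.17), and from ZT10 to ZT14-fed it was -0.13 (-0.42 to 0.16, limma BH-adjusted p = 0.53). The whole interval for Rbm3 lay above that for Cirbp in both comparisons. NM_016809 was 1.66 and 2.40 RPKM at ZT10, 1.81 and 1.79 at ZT14-unfed, and 2.14 and 2.07 at ZT14-fed, with overlapping groups.

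**Figure D2:**
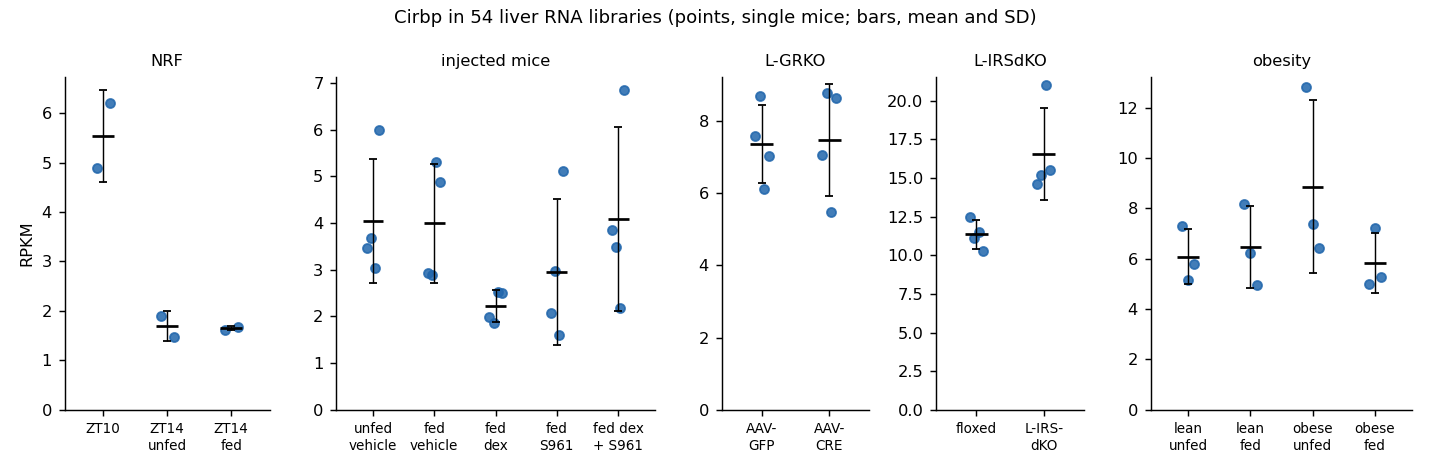
Cirbp (NM_007705) in RPKM in each of 54 libraries, by experiment, with the mean and SD of each group. Each panel has its own axis from 0. The ZT10 mice, at 4.88 and 6.20 RPKM, are above the 4 ZT14 mice, and the L-IRSdKO mice, at 14.6 to 21.0 RPKM, are above their floxed controls, at 10.3 to 12.5 RPKM.

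Heat shock genes were set beside the members in the same mice. Of 24 heat shock chaperones, co-chaperones, and HSFs, 7 rose and 0 fell between ZT10 and ZT14-unfed, with a median of 0.85 for the list and -0.10 for all genes tested. Hspa1b, an inducible HSP70, rose by 2.62 (log2, SE 0.24, limma BH-adjusted p = 0.0044). Hsph1, an HSP110 co-chaperone, rose by 2.25, and the small heat shock protein gene Hspb1 by 1.94. Between ZT10 and ZT14-fed, 15 of the 24 rose and 0 fell, with a median of 1.32, and Hspa1b rose 18.3-fold. Of all genes tested, 1.16% were called between ZT10 and ZT14-unfed and 1.71% between ZT10 and ZT14-fed. Food at ZT14 (fed against unfed) called 0 of the 24 by limma at the adjusted threshold, with 22 of them above 0 and a median of 0.37, against 0.12 for all genes tested. The list was chosen with these data known.

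Of 17 tested core clock and output genes, 4 rose and 3 fell between ZT10 and ZT14-unfed, where 1.16% of all genes were called. Dbp, a PAR bZIP factor driven by the clock, fell by 2.41, and Arntl, which encodes BMAL1, rose by 2.08. The clock genes and the temperature-linked genes therefore moved over the same 4 hours, and the design cannot tell their part apart. Of 19 CLK kinases and SR splicing factors, 1 rose (Tra2a, by 1.00) and 1 fell (Srsf5, by 1.30), and 0 of 18 tested RRM relatives passed, with a median of 0.00. Summed markers of hepatocytes were 31926 to 31940 RPKM at ZT10, 34537 to 35896 at ZT14-unfed, and 29235 to 32591 at ZT14-fed. Kupffer cell markers summed to 55.3 to 77.3, 54.2 to 68.5, and 54.2 to 70.2 RPKM. The 4 cholangiocyte markers summed to 1.04 and 6.47 RPKM at ZT10, 1.22 to 1.92 at ZT14-unfed, and 1.57 to 1.74 at ZT14-fed, and their part was not tested.

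In the injected mice, Cirbp varied widely within groups. It was 3.47, 3.68, 3.03, and 6.00 RPKM in unfed vehicle mice and 2.92, 2.89, 5.31, and 4.87 RPKM in fed vehicle mice. These groups overlapped, with a difference of -0.02 (95% confidence interval -0.66 to 0.62, limma BH-adjusted p = 0.98), in a comparison that called 0.587% of genes. Thus in neither the NRF nor the injected mice did the meal come with a called change of Cirbp, although the latter interval is wide enough to hold a change of 1.5-fold in either direction.

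With dex, fed mice had 1.99, 1.85, 2.52, and 2.49 RPKM of Cirbp, and all 4 were below all 4 fed vehicle mice. The mean was 2.21 ± 0.342 RPKM (SD, n = 4) with dex and 4.00 ± 1.28 with vehicle. The difference was -0.69 (SE 0.30, 95% confidence interval -1.33 to -0.05) and did not pass across all genes (unadjusted p = 0.035, limma BH-adjusted p = 0.23). Groups did not overlap for 10.5% of all genes here, and 1.04% were called.

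With S961, Cirbp was 2.07, 2.98, 1.60, and 5.12 RPKM, which overlapped the vehicle mice (log2 fold change -0.44, SE 0.30, limma BH-adjusted p = 0.58), in a comparison that called 0.480% of genes. With dex and S961 together it was 3.84, 3.48, 2.17, and 6.85 RPKM, and the difference from vehicle was -0.02 (95% confidence interval -0.66 to 0.61, limma BH-adjusted p = 0.98), with 4.16% of genes called. The mice given both were therefore close to the vehicle mice in the mean, and those given dex alone were lower. The interaction of dex and S961 was 1.11 (SE 0.43, 95% confidence interval 0.21 to 2.01, unadjusted p = 0.018, limma BH-adjusted p = 1.0). This term called 0% of genes, 0 of 11248, at the adjusted threshold, while 513 had an unadjusted limma p under 0.05, which is 4.56% of them.

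Replicate 4 of each injected group carries library numbers apart from replicates 1 to 3. Cirbp in replicate 4 was above the other 3 in unfed vehicle (6.00 against 3.03 to 3.68 RPKM), in S961 (5.12 against 1.60 to 2.98), and in dex with S961 (6.85 against 2.17 to 3.84), and within their range in fed vehicle (4.87) and dex (2.49). With a term for this series in the fit, the SE of a difference in Cirbp was 0.21 in place of 0.30, and the difference of dex from vehicle stayed at -0.69, with a limma BH-adjusted p of 0.047, still above 0.01.

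Short-class Rbm3 in replicate 4 was below the other 3 in fed vehicle (2.11 against 2.40 to 3.34 RPKM), above them in dex with S961 (3.43 against 1.96 to 3.06), and within their range in the other groups. NM_001166411 was 3.72, 2.20, 2.34, and 2.91 RPKM in unfed vehicle mice and 3.23, 2.40, 3.34, and 2.11 RPKM in fed vehicle mice. With dex it was 3.38, 3.34, 3.11, and 3.27 RPKM. With S961 it was between 2.04 and 3.17 RPKM and with both agents between 1.96 and 3.43 RPKM. Each group overlapped fed vehicle, and the 4 differences from it or of it from unfed vehicle were between -0.01 and 0.23 (limma BH-adjusted p of 0.52 to 0.99).

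NM_016809 differed from the short class of Rbm3 in these mice. It was 3.35, 2.88, 3.35, and 2.52 RPKM in unfed vehicle mice and 5.21, 4.98, 4.89, and 3.84 RPKM in fed vehicle mice. All 4 fed mice were above all 4 unfed mice, as for 13.5% of genes here. NM_016809 was 1.48-fold higher after the meal (log2 fold change 0.57, SE 0.15, 95% confidence interval 0.25 to 0.88), with a limma BH-adjusted p of 0.046, which is above the 0.01 used here and below 0.05. Replicate 4 was the lowest mouse in unfed vehicle (2.52 against 2.88 to 3.35 RPKM), in fed vehicle (3.84 against 4.89 to 5.21), and in dex (3.37 against 4.65 to 4.95), and with a term for the library series the adjusted p was 0.0075 by limma. With median-ratio scaling the difference was 0.45 (limma BH-adjusted p = 0.13). Dex mice had 4.65, 4.66, 4.95, and 3.37 RPKM, S961 mice 5.13, 3.55, 3.36, and 3.47, and mice given both 3.84, 4.15, 2.86, and 3.00. The latter were lower than fed vehicle by 0.41 (log2 fold change -0.41, SE 0.15, limma BH-adjusted p = 0.089) and missed the threshold.

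The ratio of NM_016809 to NM_001166411 within a library sets the value of the long-class ID against that of the short-class ID. Reads in exons that the classes share may count toward both values. The ratio is thus no direct measure of the use of either class. Its geometric mean was 1.10 in unfed vehicle mice (0.866 to 1.43) and 1.73 in fed vehicle mice (1.46 to 2.07), without overlap. The log2 ratio differed by 0.65 (2-sided exact permutation test, p = 0.029, the smallest that 4 against 4 mice can give), and the adjusted p over the 13 comparisons of the ratio was 0.25 by the same exact tests. After the meal with dex the ratio was 1.03 to 1.59, with S961 1.18 to 1.64, and with both 0.875 to 1.52, each overlapping fed vehicle. In the NRF mice it was 0.548 to 0.713 over all 6 libraries. These ratios were compared as they stand in the table, and the treatment of reads with several places can act on either class.

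**Figure D3:**
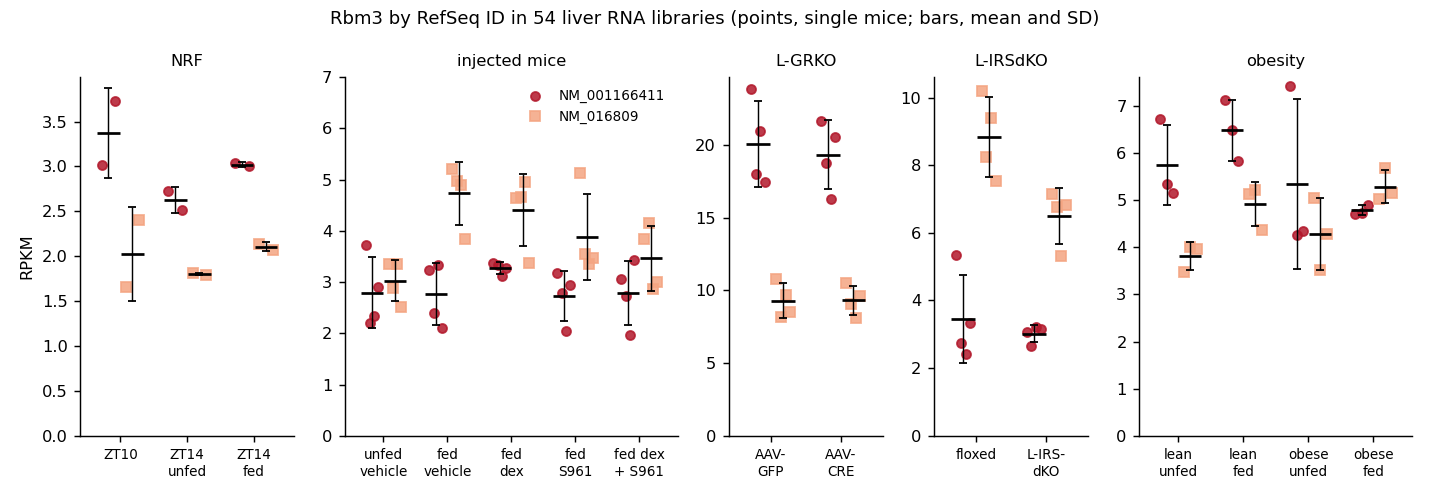
Rbm3 in RPKM in each of 54 libraries by RefSeq ID, with circles for NM_001166411 (short class) and squares for NM_016809 (long class), and the mean and SD of each group. Each panel has its own axis from 0. In fed vehicle mice the squares, at 3.84 to 5.21 RPKM, are above those of unfed vehicle mice, at 2.52 to 3.35 RPKM, while the circles overlap.

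In the L-GRKO experiment, AAV-CRE and AAV-GFP mice overlapped in both genes. Cirbp was 7.60, 8.70, 6.11, and 7.03 RPKM with AAV-GFP and 7.06, 8.77, 5.47, and 8.65 RPKM with AAV-CRE. The difference was 0.01 (95% confidence interval -0.34 to 0.36, limma BH-adjusted p = 0.98), with 6.68% of genes called at the adjusted p of 0.05 used for the knockouts. NM_001166411 was 17.5 to 23.9 RPKM with AAV-GFP and 16.3 to 21.7 RPKM with AAV-CRE (log2 fold change -0.05, 95% confidence interval -0.33 to 0.23, limma BH-adjusted p = 0.87). NM_016809 was 9.32 ± 1.21 and 9.32 ± 1.01 RPKM (SD, n = 4). Of 24 heat shock genes, 1 was called in AAV-CRE mice (Hspb8, down by 0.61 on the log2 scale). Of 19 CLK kinases and SR splicing factors, 1 was called (Srsf4, down by 0.40), and 0 of 22 RRM relatives were. The shares of the heat shock and CLK and SR lists, 4.17% and 5.26%, were below the 6.68% of all genes. Of 17 tested core clock and output genes, 4 rose and 2 fell, with Ciart down by 1.41 and Nr1d1 up by 1.16.

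In the L-IRSdKO experiment, in which all mice were fed and had received dex, Cirbp was 12.5, 11.1, 11.5, and 10.3 RPKM in floxed controls and 14.6, 15.2, 21.0, and 15.5 RPKM in L-IRSdKO mice. All 4 L-IRSdKO mice were above all 4 controls. Cirbp rose 1.43-fold (log2 fold change 0.51, SE 0.13, 95% confidence interval 0.23 to 0.80, limma BH-adjusted p = 0.025). In this comparison 17.4% of genes were called and the groups did not overlap for 21.7%, so that a call is common. Without L-IRSdKO replicate 3, the highest mouse, the rise was 0.40 with a limma BH-adjusted p of 0.045. The call was lost on leaving out any 1 of L-IRSdKO replicates 2 and 4 or of floxed replicates 2, 3, and 4, with adjusted p of 0.052 to 0.066 by limma.

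Rbm3 did not rise with Cirbp. NM_001166411 was 5.33, 2.73, 2.43, and 3.34 RPKM in controls and 3.06, 2.65, 3.20, and 3.16 RPKM in L-IRSdKO mice, overlapping, with a difference of -0.12 (95% confidence interval -0.60 to 0.36, limma BH-adjusted p = 0.73). NM_016809 was 10.2, 8.25, 9.39, and 7.52 RPKM in controls and 7.16, 6.76, 5.30, and 6.81 RPKM in L-IRSdKO mice. These groups did not overlap, and the log2 fold change of -0.42 (SE 0.13) had a limma BH-adjusted p of 0.060. Thus the point estimates of Cirbp and of long-class Rbm3 had opposite signs.

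Of the 24 heat shock genes, 11 fell and 0 rose in L-IRSdKO livers, with a median of -0.29 against 0.03 for all genes tested. Bag3, an HSP70 co-chaperone, fell by 1.30 (log2, SE 0.20, limma BH-adjusted p = 0.0053), Dnajb1, an HSP40, by 0.84, and the HSP110 relative Hspa4l by 0.82. The 11 calls stand beside the 17.4% of all genes called here. Of 22 RRM relatives, 2 rose (Hnrnpa0 by 0.35 and Rbm39 by 0.25) and 1 fell (Rbm4 by 0.46). Of 19 CLK and SR genes, 1 was called (Clk3, a CLK kinase, down by 0.48). Of 17 tested clock and output genes, 2 fell and 0 rose, with Per2 down by 0.75. The shares called were 13.6% of RRM relatives, 5.26% of CLK and SR genes, and 11.8% of clock genes. Each was below the 17.4% of all genes. Kupffer cell markers summed to 259 to 302 RPKM in L-IRSdKO mice and 151 to 268 RPKM in controls, stellate cell markers to 108 to 128 and 89.3 to 109 RPKM, and cholangiocyte markers to 1.65 to 2.91 and 3.44 to 5.43 RPKM. The hepatocyte sums, 2362 to 2846 and 2609 to 2813 RPKM, overlapped. The part of these cell types in the rise of Cirbp was not tested.

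In the obesity experiment, no difference of either member was called. Cirbp was 7.29, 5.17, and 5.77 RPKM in lean unfed mice and 8.19, 6.21, and 4.95 RPKM in lean fed mice. In obese unfed mice it was 12.8, 7.38, and 6.41 RPKM, and in obese fed mice 5.01, 7.21, and 5.26 RPKM. The 4 groups overlapped, and 1 obese unfed mouse had the highest value of the experiment. The meal came with a difference of 0.07 in lean mice (95% confidence interval -0.48 to 0.61, limma BH-adjusted p = 0.88) and of -0.52 in obese mice (-1.07 to 0.02, limma BH-adjusted p = 0.22). These comparisons called 10.2% and 1.22% of genes. The difference between the meal effects was -0.59 (95% confidence interval -1.36 to 0.18, limma BH-adjusted p = 0.46), with 0.131% of genes called. Obese unfed mice differed from lean unfed mice by 0.46 (limma BH-adjusted p = 0.29, 0.770% of genes called) and obese fed from lean fed mice by -0.13 (limma BH-adjusted p = 0.82). In the last comparison limma called 0% of genes, 0 of 11431, and 2283 had an unadjusted p under 0.05.

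Short-class Rbm3 was 6.72, 5.35, and 5.16 RPKM in lean unfed, 7.13, 6.50, and 5.84 in lean fed, 7.42, 4.26, and 4.35 in obese unfed, and 4.72, 4.74, and 4.91 in obese fed mice. All 3 obese fed mice were below all 3 lean fed mice, as for 32.6% of genes, and the difference was -0.40 (SE 0.18, 95% confidence interval -0.78 to -0.01, limma BH-adjusted p = 0.24). The remaining differences of NM_001166411 were smaller, at 0.17, -0.10, and -0.13, and the groups overlapped. Long-class NM_016809 went up by 0.33 with the meal in lean mice, from 3.48, 4.00, and 3.97 RPKM to 5.14, 5.23, and 4.38 RPKM, without overlap, as for 43.3% of genes, but it did not pass (limma BH-adjusted p = 0.069). In obese mice it was 5.04, 3.52, and 4.28 RPKM unfed and 5.02, 5.68, and 5.16 RPKM fed, with a difference of 0.29 (limma BH-adjusted p = 0.16). Its interval lay above 0 for the meal in the injected (0.25 to 0.88), the lean (0.06 to 0.59), and the obese mice (0.02 to 0.55). It held 0 in the NRF mice (-0.18 to 0.53). These intervals are not adjusted for the number of features, and NM_016809 was added after the data were seen. None of these differences passed the threshold in the main fit. The median of all genes tested was 0.10 in the injected, 0.08 in the lean, and 0.02 in the obese mice. The ratio of NM_016809 to NM_001166411 was 1.05 to 1.20 in obese fed mice and 0.721 to 0.805 in lean fed mice. The difference had p = 0.10 by a 2-sided exact permutation test, the smallest that 3 against 3 mice can give.

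With the meal, 10 of 23 tested heat shock genes rose in lean mice, where 10.2% of all genes were called, and 13 did not pass. In obese mice 4 of 23 rose, where 1.22% of all genes were called, and 19 did not pass. In both diets 0 fell, and the medians were 0.64 and 0.50. Hsp90aa1, the inducible HSP90, rose by 1.43 (log2) in lean mice, and Stip1, the HSP70 to HSP90 adaptor, by 0.98 in obese mice. The interval for Cirbp held 0 with the meal in both diets. Of 19 CLK and SR genes, 3 rose and 1 fell in lean mice, with Srsf7 and Srsf1 up by 0.80 and 0.72 and Clk1 down by 0.63. In obese mice 0 of the 19 were called, and 0 of 22 RRM relatives were called in either diet.

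**Figure D4:**
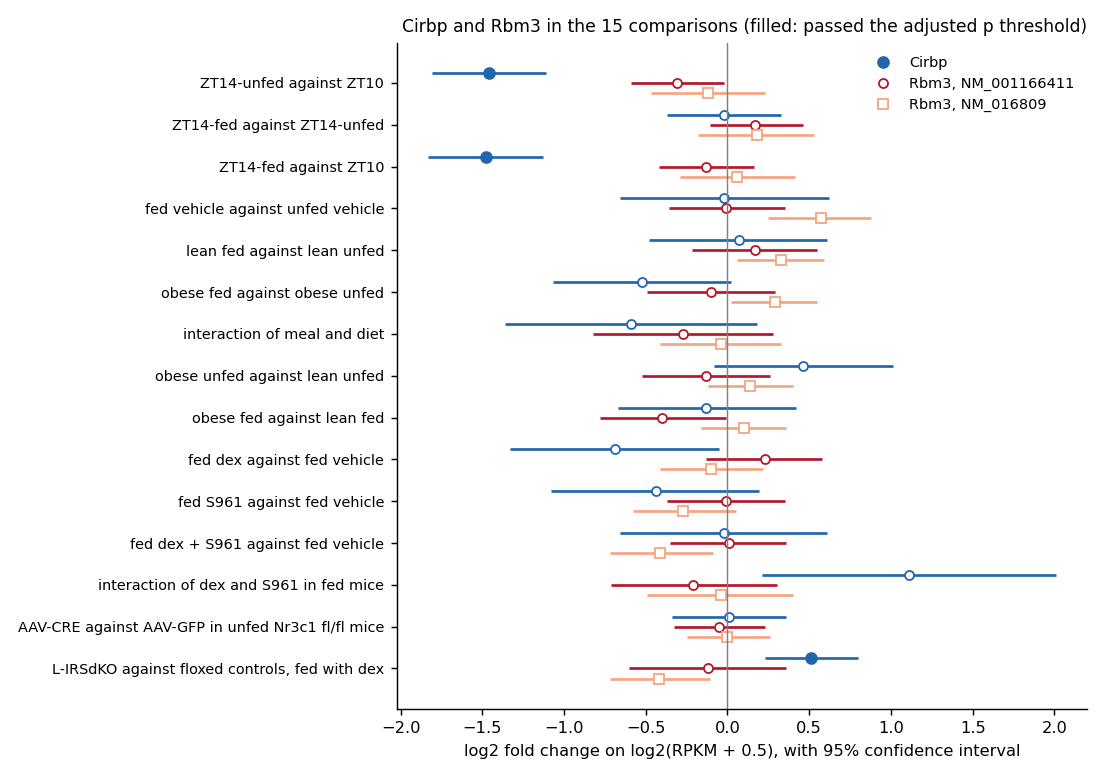
Log2 fold changes of Cirbp, NM_001166411, and NM_016809 on log2(RPKM + 0.5) in the 15 comparisons, with 95% confidence intervals from limma. Filled symbols passed the adjusted p threshold of the experiment (0.01, or 0.05 for the knockouts), which only Cirbp did, at -1.46, -1.48, and 0.51.

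Whether the members follow each other from mouse to mouse was examined with deviations from the group means, in a family of 9 correlations tested with 100000 permutations of libraries within groups. Over all 54 libraries, Cirbp and Rbm3 (NM_001166411) correlated with Pearson's r = 0.47 (BH-adjusted permutation p = 0.016) and Spearman's rho = 0.43 (0.028), and r was 0.45 without the 2 libraries farthest from the median of Cirbp. A mouse with more Cirbp than others of its group thus tended to have more short-class Rbm3. NM_016809 was not entered in these correlations. In the 12 obesity libraries r was 0.86 (rho 0.83, adjusted permutation p = 0.028 and 0.050) and 0.72 without the 2 libraries (10 libraries, unadjusted permutation p = 0.14). In the 20 injected libraries r was 0.44 (rho 0.38, adjusted permutation p = 0.13 and 0.19).

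The mean of the heat shock genes went the opposite way. With Rbm3, r was -0.49 (rho -0.49) over all 54 libraries (BH-adjusted permutation p = 0.014 and 0.011), and -0.38 without the 2 farthest libraries. In the obesity libraries r was -0.93 (rho -0.87, adjusted permutation p = 0.014 and 0.011) and -0.90 without obese unfed replicates 1 and 2, and in the injected libraries it was -0.33 (rho -0.35, adjusted permutation p = 0.13 and 0.16). With Cirbp, r was -0.35 over all libraries (rho -0.35, adjusted permutation p = 0.052 for both), -0.83 in the obesity libraries (rho -0.73, adjusted permutation p = 0.028 and 0.050, and -0.69 without 2 libraries, unadjusted permutation p = 0.13), and -0.14 in the injected libraries (rho -0.10, adjusted permutation p = 0.56 and 0.71). Mice with less short-class Rbm3 than their group hence tended to have more heat shock transcripts. Of the 3 sets of libraries, r was farthest from 0 in the obesity experiment. The libraries of 1 experiment share their preparation, and RNA quality and handling time were not analysed here. The permutations treated the mice of a group as exchangeable. In the injected mice, replicate 4 belongs to a library series of its own, and its deviations entered the correlations. The part of this series in r was not tested.

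**Figure D5:**
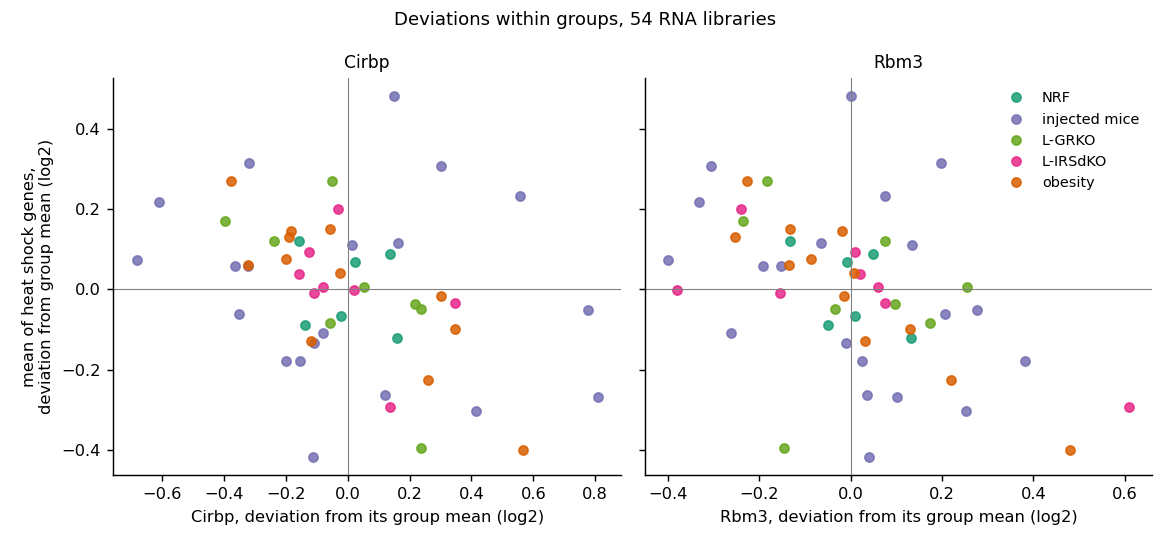
Deviation of each of 54 libraries from its group mean (log2) for Cirbp (left) and Rbm3, NM_001166411 (right), against the deviation of the mean of the heat shock genes. Points are libraries, coloured by experiment, and lie on a falling line most closely in the obesity experiment, with r = -0.93 for Rbm3 and -0.83 for Cirbp.

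The genes most like each member were sought among 10517 genes tested in all experiments, by Pearson's r over the 54 libraries after centring each experiment, as a description. For Cirbp these were Cbx7, a Polycomb subunit, Selenoo, Zbtb22, Slc20a2, a phosphate transporter, and 9430038I01Rik, with r of 0.64 to 0.66. For Rbm3 they were the overlapping antisense gene Rbm3os (0.67), then Lss (0.56), Idi1 (0.55), Rdh11 (0.53), and Pstpip2 (0.53). Lss and Idi1 encode enzymes of sterol synthesis. Cirbp and Rbm3 were far from each other in this measure, at r = 0.26, with Rbm3 at rank 1491 for Cirbp and Cirbp at rank 708 for Rbm3. The measure holds differences between groups as well as between mice, and libraries share depth and preparation within an experiment.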

How the data were processed

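The authors sequenced total RNA after poly(A) enrichment or ribosomal depletion, aligned reads to mm9 with STAR, and deposited RPKM per RefSeq ID. For regulated genes, the authors used DESeq2. The tool that counted RNA reads, the strand, and the treatment of reads with several places are not given in the sources used here. The deposited lists of DHSs, GR peaks, and FOXO1 peaks, called with HOMER, hold positions only. Of 35707 IDs, 35402 had a symbol, and 0 value columns were left unused.

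RPKM are not counts, so each experiment was fitted apart with limma 3.58.1 (R 4.3.3) on log2(RPKM + 0.5), with a variance trend, group as the only term, and Benjamini-Hochberg (BH) adjustment over all genes whose mean reached 0.5 RPKM (10904, 11248, 11646, 12963, and 11431 genes in the order of the experiments), and called at thresholds set here, 0.01 for the NRF, injected, and obesity experiments and 0.05 for the knockouts. For most calls in the injected mice the authors used 0.05. IDs of Rbm3 other than NM_001166411 were fitted with all IDs as separate features. The fit was tested on simulated data. Exact permutation tests, correlations, and sequences used Python 3.11.15. Depth was inferred from the steps of 1 read in low values. Intervals on reads cover counting error only, and p-values measure the spread between single mice.

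The members, the lists, and the comparisons were chosen with earlier results of these data known. Named are the members, the targeted genes, up to 3 called genes with the largest change per list and comparison, and the 5 genes most like each member. Only some of the listed genes so named are given in the text. NM_016809, its ratio, and the implied reads were added after seeing the data. The alternatives were other pseudocounts, filters, scalings, RefSeq IDs, and distances, a fit of only the compared groups, a replicate block, a term for the series of library numbers, and omission of single libraries. The labels give S961 as 44 nM per mouse and the methods give it by body weight, and the time of the AAV injection also reads differently. The promoter sequence of Rbm3 is not reported here.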

Additional observations from a re-analysis of the deposited data

Results flagged for a closer look

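The 9 groups of 4 mice were each tested with 3 RefSeq IDs (Cirbp and 2 of Rbm3) for 1 value far from the others by Dixon's ratio. Of these 27 tests, 2 found such a value, and chance gives about 1 in 20. Cirbp was 21.0 RPKM in L-IRSdKO replicate 3, far above the 14.6 to 15.5 RPKM of the other 3 mice (gap over range 0.865). Rbm3 NM_016809 was 5.13 RPKM in S961 replicate 1, with the other 3 mice at 3.36 to 3.55 RPKM (gap over range 0.894).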

How the results depend on the processing

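The separate fits of NM_016809 aside, 604 values were recomputed under alternatives, which include NM_016809 in place of NM_001166411. Of these, 524 kept direction and side of the threshold, 22 fell below it, 2 passed it, 48 changed sign, and 8 moved. The fall of Cirbp to ZT14-unfed stayed at -1.46 but lost the threshold of 0.01 without a filter (limma BH-adjusted p = 0.041) and with the compared groups alone (0.021), and was -1.34 with quantile normalization (0.013). Its fall to ZT14-fed stayed at -1.48 and lost the threshold without a filter (0.030). With the compared groups alone, the fall to ZT14-fed kept the threshold (limma BH-adjusted p = 0.0015). The cause of the lost calls was not tested. Leaving out 1 library gave -1.62 to -1.30 and -1.64 to -1.32 for these falls and 0.40 to 0.57 for the rise in L-IRSdKO. Low depth limits Cirbp in the injected mice and short-class Rbm3 in the L-IRSdKO experiment.

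Replicate numbers were not taken to pair the mice, since in no pairwise comparison made did every same-numbered pair correlate above 0.1. Correlations of their deviations were -0.01 to 0.06 (NRF), -0.13 to 0.64 (injected), -0.06 to 0.17 (L-GRKO), -0.06 to 0.07 (L-IRSdKO), and -0.19 to 0.26 (obesity). In the injected mice, replicate 4 correlated at 0.47 to 0.64 in all 10 pairs of groups. Every pair was above 0.1 between dex and both agents (0.17, 0.11, 0.20, and 0.47). The same held between S961 and both agents (0.14, 0.14, 0.34, and 0.63). These groups were not compared directly, but they enter the interaction of dex and S961, whose main fit held no pairing. With a replicate block, the falls of Cirbp were -1.46 (limma BH-adjusted p = 0.018) and -1.48 (0.013), its rise in L-IRSdKO was 0.51 (0.054), and the meal difference of NM_016809 in vehicle mice, 0.57, passed (0.0084), as with a term for the library series (0.0075). That difference was 0.45 with median-ratio scaling (limma BH-adjusted p = 0.13) and 0.44 with quantile normalization (0.16), and leaving out 1 library gave adjusted p of 0.031 to 0.12 by limma.

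None of the differences that changed sign was called, but not all of them were near 0. With NM_001166411, Rbm3 was -0.40 for obese against lean fed mice and 0.23 for dex. With NM_016809 in place of NM_001166411, Rbm3 was 0.06 between ZT10 and ZT14-fed, 0.57 for the meal with vehicle, -0.10 for dex, -0.41 for dex with S961, 0.29 for the meal in obese mice, and 0.14 and 0.10 for obese against lean unfed and fed mice. With NM_001166409 or NM_001293658, S961 gave 0.01. With median-ratio scaling and quantile normalization, Rbm3 was 0.07 and 0.08 for S961, Cirbp was 0.12 and 0.15 for dex with S961, -0.08 and -0.06 for AAV-CRE, and -0.01 and -0.02 for the lean meal, and NM_016809 was 0.01 for dex in both and 0.02 and 0.03 for the interaction of meal and diet. That scaling moved the median of all genes by -0.11 (ZT14-unfed against ZT10), 0.13 (meal, NRF), 0.11 (meal, vehicle), and -0.15 (dex with S961). Without 1 library, Cirbp ranged from -0.16 to 0.12 for the NRF meal, -0.16 to 0.17 for the vehicle meal, -0.28 to 0.20 for dex with S961, -0.07 to 0.14 for AAV-CRE, -0.11 to 0.23 for the lean meal, and -0.29 to 0.05 for obese against lean fed mice. Rbm3 ranged from -0.09 to 0.12 for the vehicle meal, -0.11 to 0.10 for S961, -0.10 to 0.14 for dex with S961, -0.11 to 0.03 for AAV-CRE, -0.25 to 0.08 for L-IRSdKO, and -0.23 to 0.14 for the obese meal. NM_016809 reached 0.10 and -0.15 for ZT14-unfed and ZT14-fed against ZT10, 0.01 for dex, 0.04, 0.01, 0.08, 0.03, and 0.01 for the interaction of dex and S961, and 0.07 and 0.02 for that of meal and diet.

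Without the 2 farthest libraries, r of Cirbp and Rbm3 in the obesity libraries was 0.72, of Cirbp and the heat shock mean -0.69 there and 0.01 in the injected libraries, and of Rbm3 and the heat shock mean -0.38 over all libraries. Over all libraries, r of Cirbp and the heat shock mean passed at -0.38 with quantile normalization (adjusted permutation p = 0.033) and at -0.35 with a pseudocount of 1 (0.046). Within 100 kb lay 22 DHSs, 3 GR peaks, and 1 FOXO1 peak of Cirbp, and 13 DHSs and 1 GR peak of Rbm3. Within 20 kb lay 0 GR peaks of Cirbp, and 3 DHSs and 0 FOXO1 peaks of Rbm3.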
